A study of Mus musculus with 2 samples.

Results

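The cells described here are the cycling cells of 2 single-cell RNA libraries made from CD45+ cells of the adult mouse liver. A cell was taken as cycling when its UMI counts (unique molecular identifiers, each standing for 1 captured RNA molecule) of Top2a, Mki67, Birc5, Ube2c, Nusap1 and Cdk1 summed to 4 or more and came from at least 3 of these 6 genes. Barcodes with fewer than 500 genes, or with over 10% of their UMIs from mitochondrial genes, were set aside. The rule found 121 cycling cells among 4313 cells. Of these, 75 of 3065 were in the library of the Lin-Sca-1+Mac-1+ gate, called LSM in the labels, and 46 of 1248 were in the library of the Lin-CD122+CD49a+ gate. Both gates were sorted from C57BL/6 mice aged 7 to 10 weeks, the labels name no treatment or genetic change, and each gate is 1 library. The labels do not state how many animals went into a library, and no difference between the gates has a replicate check. All intervals below are 95% intervals for counting error only, and a count of 0 cells is given with the share that 3 cells would make up in place of an interval. For a gene that share limits cells with a captured UMI, not cells that express the gene.

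The labels were checked against the genes of the surface proteins that name the gates. Ptprc, which encodes CD45, had a UMI in 49 of 75 cycling LSM cells and 44 of 46 cycling CD122+CD49a+ cells. Ly6a, which encodes Sca-1, had a UMI in 36 of the 75 cycling LSM cells, and Itgam, which encodes Mac-1, in 9. In the CD122+CD49a+ library Il2rb, which encodes CD122, had a UMI in 16 of the 29 cycling cells placed with lymphocytes and in none of the 17 placed with dendritic cells, which allows a share of up to 17.6%. Itga1, which encodes CD49a, had a UMI in 5 of those 29 lymphocytes and in 1 of the 17 dendritic cells. Il2rb and Itga1 had no UMI in the 75 cycling LSM cells, which allows a share of up to 4% for each. A receptor RNA that is captured this sparsely can go unseen in cells that carry it.

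A cell that divides first makes the proteins that copy its DNA, during S phase, and then those that condense and separate the chromosomes, during G2 and M phase. The genes of the later wave, to which the 6 rule genes belong, are held down in resting cells by the DREAM complex, which binds a short promoter element called the cell cycle genes homology region (CHR). When the cell commits to division, B-MYB and FOXM1 act through the same elements, and many of these promoters also carry CCAAT boxes, which bind NF-Y. Adult liver holds circulating and resident blood cells, among which stem and progenitor cells, dendritic cells and some lymphocytes can divide in place.

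The promoters of 4 rule genes are shown because they carry the elements that this gene set is known for. Each line gives the 250 bases before the RefSeq start (build GRCm38.p6, on the strand of the gene, 5′ to 3′). Capitals mark every match to the CHR letters TTTGAA or to the CCAAT box CCAAT on either strand. Overlapping matches are joined, as in the CCAATTGG of Ube2c.
Top2a, chr11:99024190-99024439, minus strand: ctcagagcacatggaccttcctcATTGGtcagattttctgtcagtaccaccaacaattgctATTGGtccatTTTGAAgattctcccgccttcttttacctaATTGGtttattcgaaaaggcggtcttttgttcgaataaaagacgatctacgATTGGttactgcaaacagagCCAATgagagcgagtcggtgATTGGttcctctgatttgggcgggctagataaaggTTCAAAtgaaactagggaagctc
Mki67, chr7:135716380-135716629, minus strand: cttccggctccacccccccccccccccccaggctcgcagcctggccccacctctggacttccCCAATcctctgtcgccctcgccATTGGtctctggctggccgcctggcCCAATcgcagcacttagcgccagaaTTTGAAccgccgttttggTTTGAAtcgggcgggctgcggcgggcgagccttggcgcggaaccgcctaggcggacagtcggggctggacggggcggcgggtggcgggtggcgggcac
Ube2c, chr2:164769679-164769928, plus strand: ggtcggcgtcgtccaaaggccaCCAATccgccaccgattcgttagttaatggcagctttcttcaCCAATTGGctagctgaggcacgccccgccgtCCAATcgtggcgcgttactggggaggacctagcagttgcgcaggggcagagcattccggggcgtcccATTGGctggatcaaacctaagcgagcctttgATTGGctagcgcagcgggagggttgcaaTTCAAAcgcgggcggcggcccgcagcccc
Cdk1, chr10:69352913-69353162, minus strand: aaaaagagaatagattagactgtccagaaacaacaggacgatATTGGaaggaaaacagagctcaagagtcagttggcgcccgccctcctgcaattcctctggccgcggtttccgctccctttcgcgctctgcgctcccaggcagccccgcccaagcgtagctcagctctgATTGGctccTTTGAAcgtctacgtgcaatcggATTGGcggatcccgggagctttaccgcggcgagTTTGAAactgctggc

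The nearest CHR match began 23 bases before the start in Top2a, 98 in Mki67, 29 in Ube2c and 15 in Cdk1. A CCAAT match lay upstream of it in each of the 4, at a distance of 35 bases in Top2a, 43 in Mki67, 28 in Ube2c and 33 in Cdk1. In the same window Birc5 and Nusap1 held neither motif. Of 32851 mouse promoter windows of this length, from 27025 genes, 16% held the CHR letters, 33.8% the CCAAT letters and 5.55% both. Of the 52 windows found for 47 of the G2 and M phase genes, 21 (40.4%) held the CHR letters, 39 (75%) the CCAAT letters and 18 (34.6%) both. Of the 34 windows found for 31 of the S phase genes, 6 (17.6%) held the CHR letters, 23 (67.6%) the CCAAT letters and 4 (11.8%) both. The CCAAT share thus stood above that of all windows in both lists. The E2F letters TTTGGCGC, searched on both strands, stood in 5 (14.7%) of the S phase windows against 0.417% of all windows. A match is a run of letters and does not show that a factor binds there.

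The 6 rule genes chose the cells, so their values are given as a description. Top2a (chromosome 11, 98992943 to 99024189, minus strand, GRCm38) encodes the topoisomerase that untangles sister chromatids, and had a UMI in 69 of 75 cycling LSM cells and 36 of 46 cycling CD122+CD49a+ cells. Birc5 (chromosome 11, 117849251 to 117855743), the survivin subunit of the chromosomal passenger complex, had a UMI in 68 and 34 cells. Mki67 (chromosome 7, 135689784 to 135716361), which encodes the chromosome surface protein Ki-67, had a UMI in 61 and 42 cells. Ube2c (chromosome 2, 164769898 to 164778822), the ubiquitin-conjugating enzyme of mitotic exit, had a UMI in 49 and 36 cells. Nusap1 (chromosome 2, 119618298 to 119651244), a spindle microtubule protein, had a UMI in 60 and 32 cells. Cdk1 (chromosome 10, 69335146 to 69352938), the kinase that starts mitosis, had a UMI in 63 and 21 cells. Each of the 6 genes was thus missing from some cycling cells of both libraries.

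The summed UMIs of the 6 genes ran from 4 over a median of 21 to 65 in the 75 cycling LSM cells and from 4 over a median of 11 to 57 in the 46 cycling CD122+CD49a+ cells. All 6 genes had a UMI in 32 and 9 cells. At the limit stood 3 LSM and 3 CD122+CD49a+ cells with exactly 4 UMIs, and 11 and 12 cells with exactly 3 of the genes. Just outside it stood 11 and 4 cells with 3 UMIs, and 10 and 3 cells with 4 or more UMIs from fewer than 3 genes. No UMI of the 6 genes was found in 2783 and 1144 cells. Among the cells left out for few genes or a high mitochondrial part, 1 of 68 LSM barcodes and 0 of 407 CD122+CD49a+ barcodes met the rule. The libraries shared 3 barcodes, and none of them was a cycling cell.

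**Figure D1:**
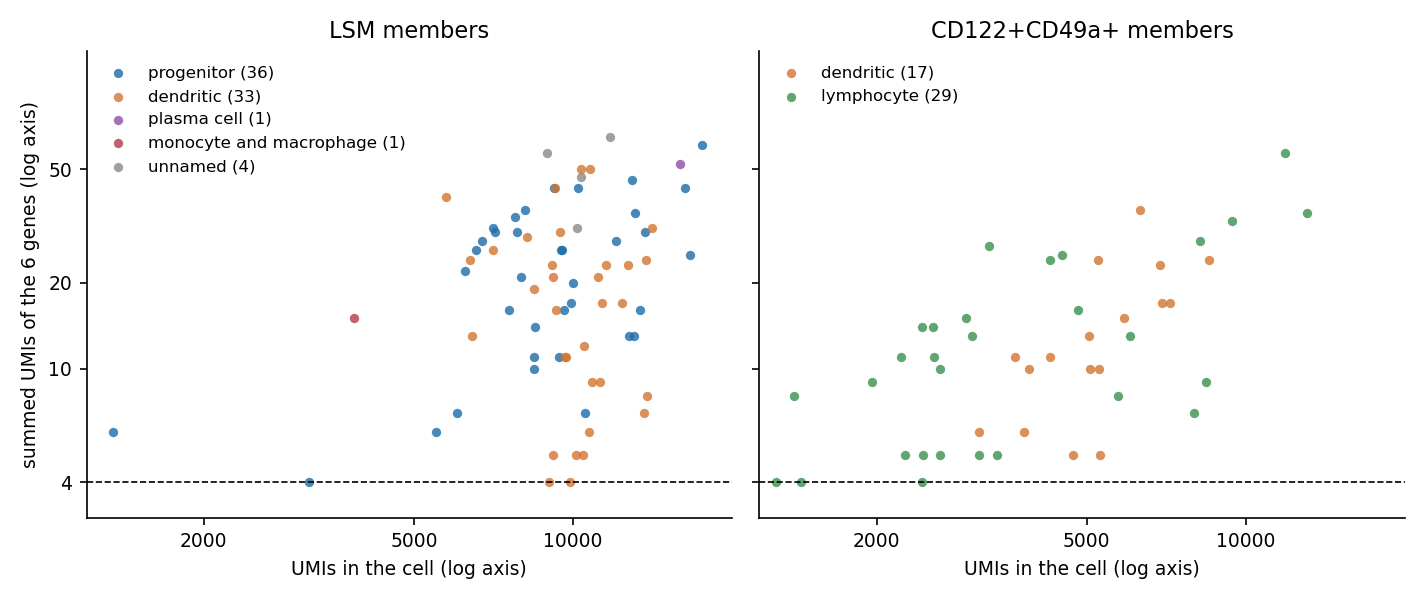
Summed UMIs of the 6 rule genes (vertical axis, log scale) against all UMIs of the cell (horizontal axis, log scale) for the 75 cycling LSM and 46 cycling CD122+CD49a+ cells, each point 1 cell coloured by the class of its neighbours, with a dashed line at the limit of 4. The LSM cells lie mostly to the right of the CD122+CD49a+ cells, with medians of 9658 and 4254 UMIs, and cells at the limit occur in both libraries.

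Depth differed between the libraries and between cycling and other cells. The deposited barcodes held a median of 5032 UMIs for the LSM gate and 1215 for the CD122+CD49a+ gate. Cycling LSM cells held a median of 9658 UMIs (1346 to 17545), against 5031 for the other LSM cells. Cycling CD122+CD49a+ cells held a median of 4254 UMIs (1289 to 13043), against 1434 for the others. A rule that needs 4 UMIs finds a deep cell more easily than a shallow one, so shares were also computed after each cell was thinned to 1500 UMIs.

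Cycling cells made up 2.45% (1.93 to 3.06) of the cells of the LSM gate and 3.69% (2.71 to 4.89) of those of the CD122+CD49a+ gate as deposited, and these intervals overlapped. At 1500 UMIs per cell the share was 0.877% (0.573 to 1.28; 26 of 2966 cells, with 99 shallower cells left out) for the LSM gate and 3.50% (2.18 to 5.30; 21 of 600, with 648 left out) for the CD122+CD49a+ gate. At 1000 UMIs per cell it was 0.623% (0.376 to 0.972; 19 of 3048) and 1.64% (0.959 to 2.61; 17 of 1036). The CD122+CD49a+ share was the higher at both depths, with intervals apart at 1500 UMIs and overlapping at 1000. Thinning to 1500 UMIs kept only the deeper 600 of the 1248 CD122+CD49a+ cells, and the share of that gate moved by over 2-fold between the depths with the cells kept.

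The lineages that cycled differed between the gates, as did the classes of all cells. The other cells of each library were clustered without cell cycle genes, clusters were named from marker lists, and each cycling cell took the class of most of its 15 nearest neighbours. In the LSM library 36 of 75 cycling cells (48%, 36.3 to 59.8) were placed with progenitors and 33 (44.0%, 32.5 to 55.9) with dendritic cells. A further 4 fell into unnamed clusters, 1 with plasma cells, 1 with macrophages, and none with lymphocytes. In the CD122+CD49a+ library 29 of 46 cycling cells (63.0%, 47.5 to 76.8) were placed with lymphocytes and 17 (37.0%, 23.2 to 52.5) with dendritic cells. Of all 3065 LSM cells, cycling or not, 624 were progenitors, 808 dendritic cells and 81 lymphocytes. Of all 1248 CD122+CD49a+ cells, 757 were lymphocytes, 450 dendritic cells and 0 progenitors. The classes of the cycling cells thus partly repeat what each library held. Dendritic cells were the class with cycling cells in both gates.

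As deposited, the cycling shares of the 4 main classes had overlapping intervals. The share was 5.77% (4.07 to 7.90) of 624 LSM progenitors, 4.08% (2.83 to 5.69) of 808 LSM dendritic cells, 3.78% (2.22 to 5.98) of 450 CD122+CD49a+ dendritic cells and 3.83% (2.58 to 5.46) of 757 CD122+CD49a+ lymphocytes. The 2 dendritic classes hold unlike clusters. That of the CD122+CD49a+ gate includes a cluster of 287 cells led by Cd209a and Clec10a. The LSM cluster led by these genes, with 656 cells, was left unnamed and is not among the 808, so the 2 dendritic shares are not of like cells. Thinned to 1500 UMIs, the shares were 1.93% (1.0 to 3.35), 1.24% (0.598 to 2.28), 2.34% (1.02 to 4.56) and 5.33% (2.87 to 8.94), in the same order. These rest on 12 of 621, 10 of 804, 8 of 342 and 13 of 244 cells, so that most of the 757 lymphocytes were too shallow to enter and almost all LSM dendritic cells were kept. The thinned lymphocyte share is that of its deeper cells and was not set against the other classes. No cycling cell was found among 81 LSM lymphocytes, which allows a share of up to 3.70%, among 126 mast cells and basophils (up to 2.38%) or among 41 CD122+CD49a+ monocytes (up to 7.32%).

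Cycling was uneven inside the dendritic class. In the LSM library the cluster of conventional dendritic-like cells with raised Xcr1, Clec9a, Batf3 and Tlr3, which are genes of the cross-presenting cDC1 type, held 29 cycling cells of 465 (6.24%, 4.22 to 8.83). The plasmacytoid dendritic-like cluster held 4 of 170 (2.35%, 0.645 to 5.91), and the mature dendritic-like cluster, marked by Ccr7 and Fscn1, held 0 of 173, which allows a share of up to 1.73%. In the CD122+CD49a+ library the cluster with raised Xcr1, Clec9a, Cadm1 and Batf3 held 14 of 154 (9.09%, 5.06 to 14.8), against 3 of 287 (1.05%, 0.216 to 3.02) in the conventional dendritic-like cluster led by Cd209a and Clec10a. An unnamed LSM cluster led by the same Cd209a and Clec10a held 2 of 656 (0.305%, 0.0369 to 1.10). In both gates the Xcr1 and Batf3 cluster therefore had a higher cycling share than the Cd209a and Clec10a cluster, with intervals that did not overlap. Median depth of the other cells was higher in the Xcr1 and Batf3 clusters (7229 against 5754 UMIs in the LSM gate, 3056.5 against 1951 in the CD122+CD49a+ gate). After thinning, the shares were 1.52% (0.613 to 3.10) and 0.156% (0.00396 to 0.867) in the LSM gate, and 4.03% (1.49 to 8.56) and 1.07% (0.130 to 3.81) in the CD122+CD49a+ gate, and in each gate the intervals of the pair then overlapped.

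Among LSM progenitors the lymphoid progenitor-like cluster held 33 cycling cells of 567 (5.82%, 4.04 to 8.08) and the stem and multipotent progenitor-like cluster 3 of 57 (5.26%, 1.10 to 14.6). Among CD122+CD49a+ lymphocytes, 15 of 199 cells (7.54%, 4.28 to 12.1) cycled in the T cell-like cluster led by Cd8b1 and Gzma and 9 of 470 (1.91%, 0.879 to 3.60) in the T cell-like cluster led by Maf. The NK cell and ILC1-like cluster held 5 of 88 (5.68%, 1.87 to 12.8). Thinned to 1500 UMIs, the 3 clusters stood at 4.82% (1.33 to 11.9; 4 of 83), 5.60% (2.28 to 11.2; 7 of 125) and 5.56% (0.680 to 18.7; 2 of 36). Only 125 of the 470 cells of the cluster led by Maf were deep enough to enter, so these values cannot show whether the difference at full depth holds at matched depth.

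**Figure D2:**
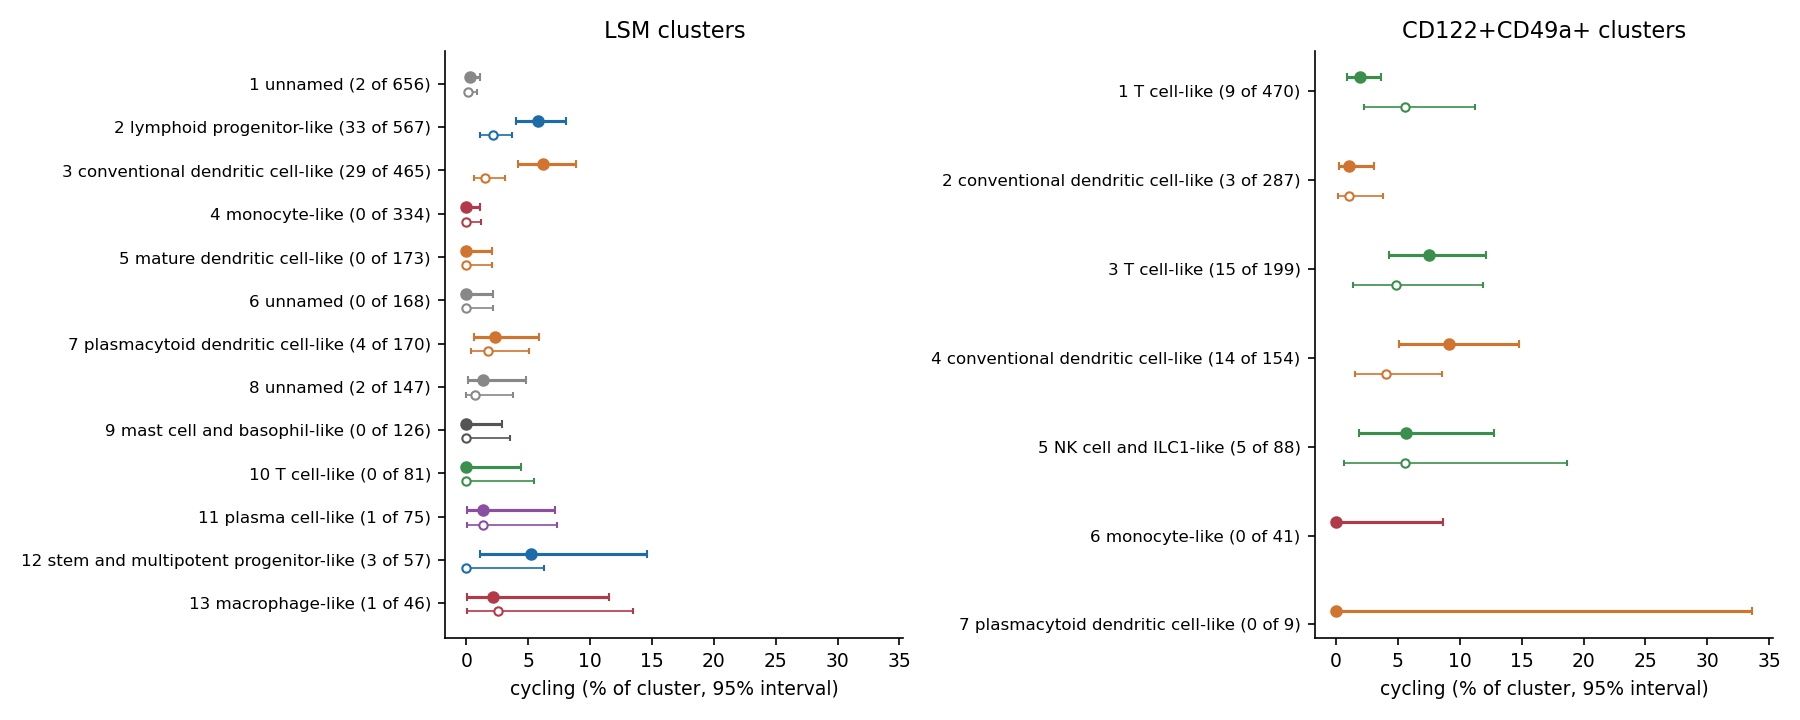
Cycling share in percent of each cluster's cells (filled points as deposited, open points after thinning to 1500 UMIs, bars the exact binomial 95% interval, open points only for clusters with at least 20 thinned cells). The highest shares as deposited are those of the Xcr1 and Batf3 clusters, the lymphoid progenitor-like cluster and the T cell-like cluster led by Cd8b1, and in each LSM cluster with more than 1 cycling cell the thinned share lies below the deposited one.

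The class calls were checked cell by cell. All 15 neighbours were of 1 class for 60 of the 75 cycling LSM cells and for all 46 CD122+CD49a+ cells. For 9 LSM cells fewer than 80% of the neighbours had the winning class, and the lowest share was 53.3%. Of the other cells, 99.6% and 99.3% were given their own class by the same vote. Their clusters were built from the same neighbours, so these shares do not check how cycling cells were placed. Doublets were marked but not removed: 1 cycling LSM cell and no cycling CD122+CD49a+ cell were among the 78 and 20 predicted doublets. Cd3d of T cells and H2-Aa of antigen-presenting cells were both found in 6 of 46 cycling CD122+CD49a+ cells (13%, 4.94 to 26.3) against 4.58% (3.47 to 5.91) of the other cells, at median depths of 4254 and 1434 UMIs. Of other liver cells, the hepatocyte list had 1 UMI in all 75 cycling LSM cells and 1 in the 46 CD122+CD49a+ cells, Alb and Hba-a1 had none in either gate, and the endothelial list had 128 UMIs in 45 of the 75 LSM cells and 4 UMIs in the 46 CD122+CD49a+ cells. Of those 128 UMIs 108 were in the cycling progenitors.

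Cycling progenitors of the LSM gate carried genes of early, lymphoid-primed blood progenitors. Because the marker lists named the clusters, these values are a check and a description. Cd34, a surface sialomucin of blood progenitors, had a UMI in 28 of 36 cycling progenitors (77.8%, 60.8 to 89.9) and in 369 of 588 other progenitors (62.8%). Flt3, the growth factor receptor of multipotent and dendritic progenitors, had a UMI in 28 of 36 (77.8%) and 287 of 588 (48.8%). At 1500 UMIs per cell, where the share no longer moves with depth, Cd34 was found in 37.1% (21.5 to 55.1) of 35 cycling and 29.9% (26.2 to 33.7) of 586 other progenitors, and Flt3 in 20% (8.44 to 36.9) and 18.6% (15.5 to 22.0), with overlapping intervals for both genes. In LSM monocytes, which should lack both genes, the shares were 0.898% for Cd34 and 1.20% for Flt3 at a median of 2358.5 UMIs, against 9313 in the cycling progenitors. Cd34 and Flt3 were found together in 33 of the 75 cycling LSM cells (44%), and in 6.99% of the other LSM cells.

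Genes of lymphoid commitment were present in some of these cells. Dntt, the template-free DNA polymerase of early lymphoid cells, had a UMI in 20 of 36 cycling progenitors (55.6%) at 233 UMIs per 1000000 of the group's UMIs, written CPM,, and in 205 of 588 others (34.9%) at 166 CPM. Il7r, the interleukin 7 receptor chain, was found in 13 of 36 at 93.1 CPM, and stood at 76.8 CPM in the others. After the same thinning Dntt was found in 14.3% (4.81 to 30.3) of cycling and 16% (13.2 to 19.3) of other progenitors, with overlapping intervals. Lmo2, a transcription factor of blood progenitors, was found in 30 of 36 at 253 CPM, against 406 CPM in the others. Rag1, the recombinase that joins antigen receptor genes, had no UMI in the 36 cells, which allows a share of up to 8.33%, and was found in 5 of 588 others. No Cd3d, Cd3e or Cd3g UMI was found in them either. Hlf, a stem cell transcription factor, stood at 14.5 CPM in 4 cycling progenitors and 52.8 CPM in the others.

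The genes that most separated cycling progenitors from the other 39 cycling LSM cells, chosen by size, were mostly outside the marker lists. Il12a, the p35 chain of interleukin 12, had a UMI in 32 of 36 cycling progenitors and 2 of the 39, at 256 and 10.1 CPM (25.4-fold, 9.56 to 95.1). Nkg7, a granule membrane protein best known from cytotoxic lymphocytes, was found in 25 of 36 and 2 of 39, at 207 and 5.05 CPM (40.9-fold). Ctla2a, a cysteine protease inhibitor, was found in 24 of 36 and 0 of 39 cells and was at least 31.5-fold higher. Hes1, a Notch target that represses transcription, was 22.3-fold higher (169 and 7.57 CPM). Wfdc18 was found in 18 of 36 and 0 of 39 cells. Ifitm1 and Ifi27, interferon-inducible genes, were each 31.1-fold higher, and Dntt was 92.2-fold higher. Egfl7, which is on the endothelial list, had a UMI in 28 of 36 cycling progenitors at 288 CPM and in 8 of 33 cycling dendritic cells at 26.8 CPM, while Cdh5 and Stab2 of endothelial cells had none in the progenitors.

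Against the other progenitors, cycling progenitors had higher levels of division genes that no list held. Esco2, the cohesin acetyltransferase of S phase, had a UMI in 21 of 36 cycling and 1 of 588 other progenitors, and Pbk, a mitotic kinase, in 25 of 36 and 4 of 588. Ezh2, the methyltransferase of the Polycomb repressive complex, stood at 204 CPM against 37.9 (5.37-fold, 3.93 to 7.29). Genes lower by CPM in cycling progenitors included those of antigen presentation and lymphocyte signalling. Cd74, the invariant chain of MHC class II, stood at 521 CPM against 2346 (0.222-fold, 0.190 to 0.257), H2-Aa at 29.1 against 179, H2-Eb1 at 46.5 against 214, and Ltb, the lymphotoxin beta chain, at 75.6 against 372. By share of cells with a UMI only Ltb was lower, with 16 of 36 cycling and 411 of 588 other progenitors. Cd74 was found in 31 and 498 of these cells, H2-Aa in 7 and 107, and H2-Eb1 in 12 and 135. Median depths were 9313 and 4790 UMIs, which also moves these shares. Whether a minority of the other progenitors carried the MHC class II sums was not tested. Idi1 of isoprenoid synthesis stood at 14.5 CPM against 111, Samhd1, which breaks down deoxynucleotides, at 14.5 against 103, and Anxa2 at 46.5 against 245.

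Cycling dendritic cells of the LSM gate were led by cDC1 genes and MHC class II. Batf3, the transcription factor that cDC1 need, had a UMI in 22 of 33 cycling dendritic cells and 4 of the other 42 cycling LSM cells, at 242 and 14.8 CPM (16.3-fold, 7.17 to 45.7). Id2, which holds dendritic cells away from the plasmacytoid fate, stood at 638 and 37.1 CPM (17.2-fold). Naaa, an acid amidase of cDC1, stood at 194 and 9.88 CPM, and H2-Ab1, an MHC class II beta chain, at 3298 and 299 CPM (11-fold). Ifi205 was 130-fold higher, Plbd1 30.8-fold and Ckb 28.5-fold.

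Levels of mature dendritic cell genes were low in the cycling dendritic cells, whose class includes the mature cluster with 0 cycling cells. Ccr7, the receptor that leads dendritic cells to lymph nodes, had a UMI in 1 of 33 cycling and 163 of 775 other LSM dendritic cells, at 2.98 and 244 CPM. Fscn1, the actin bundler of their dendrites, was found in 0 of 33 and 150 of 775 cells, so its level was at least 25.7-fold lower. Ccl5, a chemokine, stood at 8.95 CPM against 1825. Within the Xcr1 and Batf3 cluster alone, the mature dendritic list summed to 26.0 CPM in cycling and 30.8 in other cells (0.846-fold, 0.355 to 1.73).

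The 29 cycling cells of the LSM Xcr1 and Batf3 cluster were compared with the 436 other cells of that cluster, as a description, since the cycling rule made the split. Batf3 had a UMI in 22 of 29 (75.9%) at 264 CPM against 431 CPM in the others. Xcr1, the chemokine receptor of cDC1, was found in 6 of 29 (20.7%) at 22.8 CPM against 32.9 CPM, and Clec9a, their receptor for dead cells, in 10 of 29 at 32.5 CPM against 58.5 CPM. Cd34 was found in 13 of 29 (44.8%) at 71.6 CPM and in 44 of 436 (10.1%) at 16.3 CPM. Prtn3, the neutrophil serine protease also made by myeloid progenitors, stood at 124 CPM in 6 of 29 cells and 3.69 CPM in 9 of 436. Siglech, a lectin of plasmacytoid dendritic cells, stood at 26.0 CPM in 5 of 29 cells and 5.85 CPM in 14 of 436. Kit was found in 10 of 29 at 32.5 CPM against 61.6 CPM, and Flt3 in 14 of 29 at 91.1 CPM against 78.5 CPM. The stem and multipotent progenitor list stood at 1.37-fold (0.935 to 1.95, and 1.08-fold by TMM) and the lymphoid progenitor list at 0.836-fold (0.587 to 1.16, and 0.659-fold by TMM). The granulocyte-monocyte progenitor list, which holds Prtn3, stood at 28.7-fold (22.6-fold by TMM). Prtn3 gave nearly all UMIs of that list in the cycling cells, so the list adds nothing apart from Prtn3. Of these Prtn3 UMIs 37 were in 5 of the 8 cells with low MHC class II described below, and 1 was in the other 21 cells. Cd34 and Prtn3 thus stood higher in the cycling cells of the cluster, Prtn3 mostly through those 5 cells. The stem and multipotent and the lymphoid progenitor lists did not stand apart. Depth was also higher (medians of 10452 and 7229 UMIs).

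MHC class II divided the same 29 cells. The summed level of the 7 MHC class II presentation genes ran from 368 CPM over a median of 17086 to 39240 CPM per cell. In the 36 cycling progenitors it ran from 82.8 over 705 to 3829 CPM, and 8 of the 29 cells (27.6%) stood no higher than the highest of these. The highest of the 8 was at 3714 CPM and the next cell at 9090 CPM, so no cell lay between. Of the 436 other cells of the cluster, 3 (0.688%) stood as low. In the CD122+CD49a+ library the 14 cycling cells of the Xcr1 and Batf3 cluster ran from 22611 to 43153 CPM, and none was as low. This limit was set after the values were seen, so the 8 cells are described with no interval or test.

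The 8 cells with low MHC class II also differed from the other 21 in genes that did not choose them. Cd34 had a UMI in 7 of 8 and 6 of 21 cells, Prtn3 in 5 of 8 and 1 of 21, Siglech in 4 of 8 and 1 of 21, and Ly6d, a surface protein of lymphoid and plasmacytoid dendritic progenitors, in 4 of 8 and 0 of 21. Batf3 was found in 3 of 8 and 19 of 21, and Kit, the stem cell factor receptor, in 0 of 8 and 10 of 21. By level, Ly6d stood at 1504 CPM against none, Cox6a2 at 425 CPM against none, and Ccl4 at 1011 against 72.6 CPM. The 8 cells were placed less surely: 7 of them had fewer than all 15 neighbours in the dendritic class, with a median of 66.7%, while all 21 others had all 15. Depth was alike, with medians of 10615 and 10452 UMIs, and none of the 8 was a predicted doublet. These genes were picked after their values were seen.

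The 4 cycling plasmacytoid dendritic-like cells had Siglech in 4 of 4 cells at 713 CPM and MHC class II sums of 155 to 784 CPM, below the range of the other 21 cells above. The 4 cycling cells of unnamed clusters, 2 in the cluster led by Cd209a and 2 in the cluster led by Ly6c2 and Cd209d, had MHC class II sums of 4058 to 27149 CPM, above all 36 cycling progenitors.

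Cycling dendritic cells of the 2 gates differed in MHC class II, conventional and plasmacytoid dendritic and replication genes, among other lists. The 17 CD122+CD49a+ cells include 3 of the cluster led by Cd209a and Clec10a. The LSM cluster led by these genes was unnamed, so its cells are not among the 33. Over 4288 genes with at least 10 UMIs in both groups together, 21.5% were at least 2-fold higher and 16.1% at least 2-fold lower in the 33 LSM cells than in the 17 CD122+CD49a+ cells, with a median log2 ratio of 0.12. Scaling by TMM factors (a trimmed mean over genes in place of the total) moved this median to 0.42 and the split from 923 higher and 690 lower genes to 1279 and 426. The MHC class II genes summed to 16216 CPM in the LSM and 36844 CPM in the CD122+CD49a+ cells (0.440-fold, 0.422 to 0.460, and 0.542-fold by TMM), and 4 of the 6 measured genes were at least 2-fold lower. Between the 2 Xcr1 and Batf3 clusters alone the ratio was 0.511 (0.488 to 0.536). The conventional dendritic list summed to 510 and 1339 CPM (0.381-fold, 0.30 to 0.484), with 6 of 8 genes at least 2-fold lower and none higher. Xcr1 stood at 22.8 CPM in the LSM cluster and 228 CPM in the CD122+CD49a+ cluster, and Cadm1, an adhesion molecule of cDC1, at 13 and 134 CPM.

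The plasmacytoid list summed to 2860 and 154 CPM (18.6-fold, 11.0 to 34.2), with all 5 measured genes at least 2-fold higher in the LSM cells. The 4 plasmacytoid dendritic-like cycling cells were all in the LSM gate, and between the Xcr1 and Batf3 clusters alone the ratio was 9.42 (4.91 to 20.8). A few cells carried much of this second ratio. Of the list genes, Ly6d (131 UMIs) and Cox6a2 (37 UMIs) were found in 4 and 3 of the 8 LSM cells with low MHC class II, which were placed less surely. Neither gene had a UMI in the other 21 cycling cells of that cluster. Flt3 stood at 86.5 CPM in the LSM and 252 CPM in the CD122+CD49a+ cycling dendritic cells (0.343-fold, 0.191 to 0.620), and Csf2rb, the shared beta chain of the GM-CSF receptor, at 8.95 and 87.8 CPM. The granulocyte-monocyte progenitor list had 39 UMIs in the LSM cells, 38 of them of Prtn3, and none in the CD122+CD49a+ cells (at least 3.53-fold). The cytotoxic and effector list had 5 and 8 UMIs. The gate, the library and the depth cannot be told apart in any of these differences, since each gate is 1 library.

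Cycling lymphocytes of the CD122+CD49a+ gate carried genes of the T cell receptor complex and of cytotoxic granules, although the gate was sorted as lineage-negative. At least 1 of the CD3 chain genes Cd3d, Cd3e and Cd3g was found in 26 of 29 cells (89.7%, 72.6 to 97.8), and in 685 of 728 other lymphocytes (94.1%). The share was 2 of 17 in cycling dendritic cells, whose median depth of 5261 UMIs was higher than the 3028 of the lymphocytes. Cd3d stood at 600 CPM against 1286 CPM in the other lymphocytes, Cd3e at 343 against 621 and Cd3g at 608 against 1244. Cd8a or Cd8b1 was found in 4 of 29 and Cd4 in 2 of 29. Cycling and other lymphocytes were spread unequally over the clusters: 15 of 29 cycling and 184 of 728 other cells were in the T cell-like cluster led by Cd8b1 and Gzma, 9 of 29 and 461 of 728 in that led by Maf, and 5 of 29 and 83 of 728 in the NK cell and ILC1-like cluster. Each value below for cycling against other lymphocytes also carries this difference in make-up.

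Natural killer and ILC1 genes were found in the same class. Ncr1, the NKp46 receptor, had a UMI in 5 of 29 cycling lymphocytes (17.2%, 5.85 to 35.8) at 109 CPM, and in 9 of 728 others (1.24%, 0.567 to 2.33) at 9.82 CPM. Those 5 cells fell into all 3 lymphocyte clusters, 1 in the T cell-like cluster led by Maf, 2 in that led by Cd8b1 and 2 in the NK cell and ILC1-like cluster. Klrd1, the CD94 receptor, was found in 21 of 29 (72.4%) at 655 CPM and in 244 of 728 (33.5%) at 595 CPM. Eomes, a transcription factor of NK and memory T cells, was found in 2 of 29, and Tbx21, which encodes T-bet, in 7 of 29 at 70.1 CPM. Thinned to 1500 UMIs, Ncr1 was found in 3 of 26 cycling and 1 of 218 other lymphocytes (11.5%, 2.45 to 30.2, and 0.459%, 0.0116 to 2.53), and Klrd1 in 38.5% and 45.9%. By CPM Ncr1 thus stood higher in the cycling cells, whereas the Klrd1 levels lay close together. The thinned intervals of Ncr1 just overlapped and rest on 3 and 1 cells.

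Effector genes varied between the clusters. Gzma, a granule protease, had a UMI in 18 of 29 cycling lymphocytes (62.1%) at 2525 CPM and in 97 of 728 others (13.3%) at 1086 CPM, and at 1500 UMIs per cell in 46.2% (26.6 to 66.6) and 20.6% (15.5 to 26.6). It was found in 12 of 15 cycling cells of the cluster led by Cd8b1 and Gzma, 3 of 9 of that led by Maf and 3 of 5 of the NK cell and ILC1-like cluster. Of the other cells of these clusters it was found in 54 of 184, 5 of 461 and 38 of 83. By level it stood at 2857 against 2330 CPM in cycling and other cells of the cluster led by Cd8b1 and Gzma, at 1239 against 8.20 CPM in that led by Maf and at 4050 against 3567 CPM in the NK cell and ILC1-like cluster. In all but the cluster led by Maf the levels lay nearer together than over the whole class. Among dendritic cells of the gate it was found in 0 of 17 cycling and 0.924% of the 433 other cells. Gzmb was found in 17 of 29 at 351 CPM, against 437 CPM in the others, and Prf1, which encodes perforin, in none of 29, which allows a share of up to 10.3%. Xcl1, the ligand of the XCR1 receptor, stood at 1897 CPM in 7 of 9 cycling cells of the cluster led by Maf and 53.6 CPM in 3 of 15 of that led by Cd8b1. Ccl5 stood at 8542 CPM in the cycling and 18176 CPM in the other lymphocytes.

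Outside the lists, genes higher in cycling than in other lymphocytes were Cenpw, a centromere protein (382 and 22.6 CPM, 16.9-fold, 10.1 to 29.1), Siva1 (218 and 28.5 CPM), Orc6, a subunit of the origin recognition complex (109 and 18.7 CPM), and Tuba1c, an alpha tubulin with near-identical copies (187 and 31.4 CPM). Genes lower in cycling lymphocytes were Bcl2l11, which encodes the death protein BIM (7.79 and 112 CPM, 0.0696-fold, 0.00175 to 0.396), Il4, the type 2 cytokine (7.79 and 101 CPM), Dtx1, a Notch pathway ligase (7.79 and 105 CPM), and Mmp9 (15.6 and 148 CPM). Each of these 4 had a UMI in 1 of 29 cycling lymphocytes. Il4 and Mmp9 were nearly confined to the cluster led by Maf among the other lymphocytes, with 103 of 103 and 149 of 151 UMIs, and Il4 was found there in 0 of 9 cycling and 73 of 461 other cells. Bcl2l11 was found in 1 of 9 cycling and 64 of 461 other cells of that cluster and in 0 of 15 and 15 of 184 of the cluster led by Cd8b1, and Dtx1 in 1 of 9 and 70 of 461 and in 0 of 15 and 12 of 184. Within single clusters these counts are too small to show a difference, whereas Cenpw was found in 6 of 9, 11 of 15 and 4 of 5 cycling cells and in under 5% of the other cells of each cluster.

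**Figure D3:**
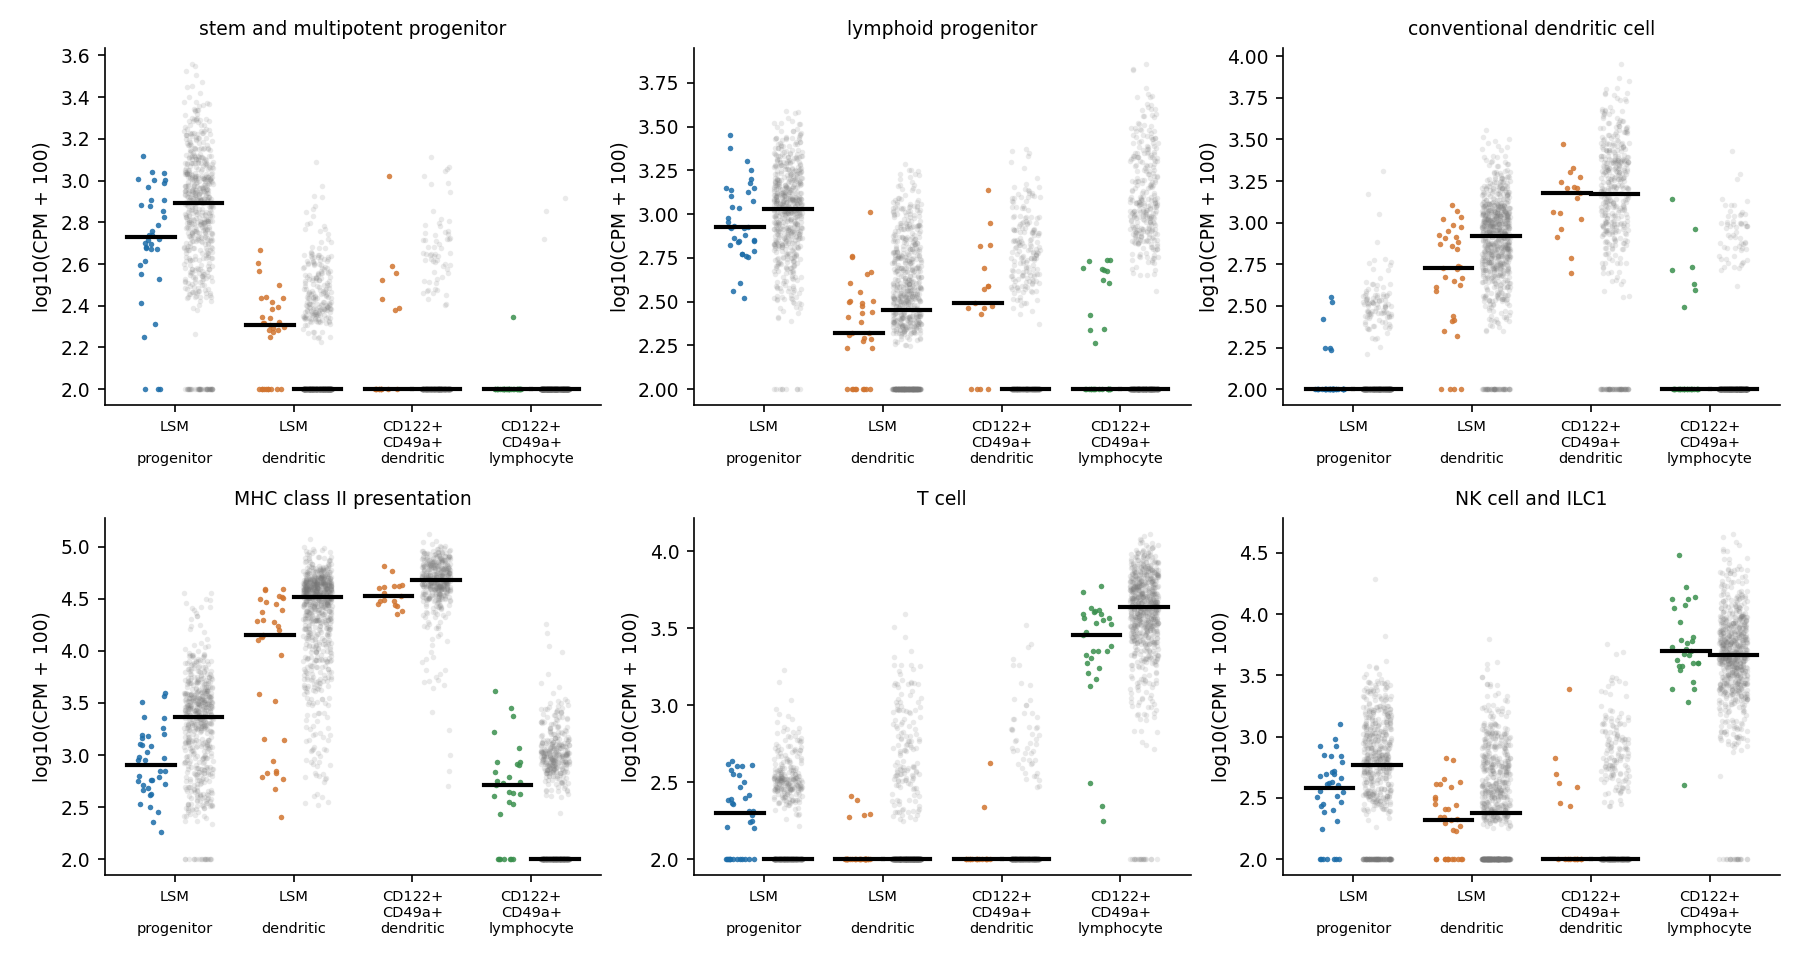
Summed level of 6 marker or gene lists per cell, as log10 of CPM plus 100, for the cycling cells of the 4 main classes (coloured) and the other cells of the same class (grey), with a black line at the median. Cycling cells show the lists of their own class, the MHC class II levels of cycling LSM dendritic cells form a lower and an upper group, and all 17 cycling CD122+CD49a+ dendritic cells lie at or above 22611 CPM.

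The single cycling plasma cell and macrophage of the LSM gate were described alone. The plasma cell held 15920 UMIs, 820 of them from the 9 plasma cell genes, all of which were found. Jchain, which joins secreted antibody chains, gave 495 of these UMIs and Mzb1, a chaperone of antibody secretion, 222, and the 6 rule genes gave 52. The macrophage held 3857 UMIs with all 9 macrophage genes found, among them 19 UMIs of Clec4f, a lectin of Kupffer cells, and 12 of C1qa, and 15 UMIs of the rule genes. All 15 neighbours were of the class named for both.

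The phase of the cycle was read from 43 S phase genes and from 48 G2 and M phase genes outside the rule. Because the rule uses G2 and M phase genes, cells in early S phase may be missed, and the parts below describe only the cells found. S phase genes gave 26.5% (25.6 to 27.3) of the phase UMIs in cycling LSM cells and 20.5% (19.1 to 22.1) in cycling CD122+CD49a+ cells. By class the part was 30.2% (28.8 to 31.7) in LSM dendritic cells, 26.6% (25.4 to 27.8) in LSM progenitors, 21.6% (19.8 to 23.5) in CD122+CD49a+ lymphocytes and 18.2% (15.7 to 20.9) in CD122+CD49a+ dendritic cells. Dendritic cells thus stood at both ends of the order, and the lymphocytes and dendritic cells of the CD122+CD49a+ gate had overlapping intervals. Single cells spread far more than the classes, from 1.60% to 65.4% in LSM dendritic cells and from 1.79% to 57.8% in LSM progenitors. S phase genes gave most of the phase UMIs in 8 of 75 and 1 of 46 cells.

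Smaller groups differed as well. The 3 cycling cells of the stem and multipotent progenitor-like cluster stood at 46.4% to 53.6%, against 24.9% (23.7 to 26.2) summed over the 33 cells of the lymphoid progenitor-like cluster. The 4 cycling cells of unnamed clusters stood at 6.19% (4.55 to 8.20) together, with 45 S phase UMIs among 727. Cells that the rule may miss were counted by S phase genes alone. At or above the median S phase level of the cycling cells, with at least 5 S phase UMIs, stood 39 of 2990 other LSM cells and 39 of 1202 other CD122+CD49a+ cells. That median was 3691 CPM in the LSM and 2100 CPM in the CD122+CD49a+ library, so the 2 counts have unlike limits. Among the LSM cells 23 of these 39 were progenitors and 11 dendritic cells, classes with 588 and 775 of the 2990 other cells. In the CD122+CD49a+ gate 25 were lymphocytes and 14 dendritic cells. These classes held 728 and 433 of its 1202 other cells, so most cells of any kind would fall into them.

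**Figure D4:**
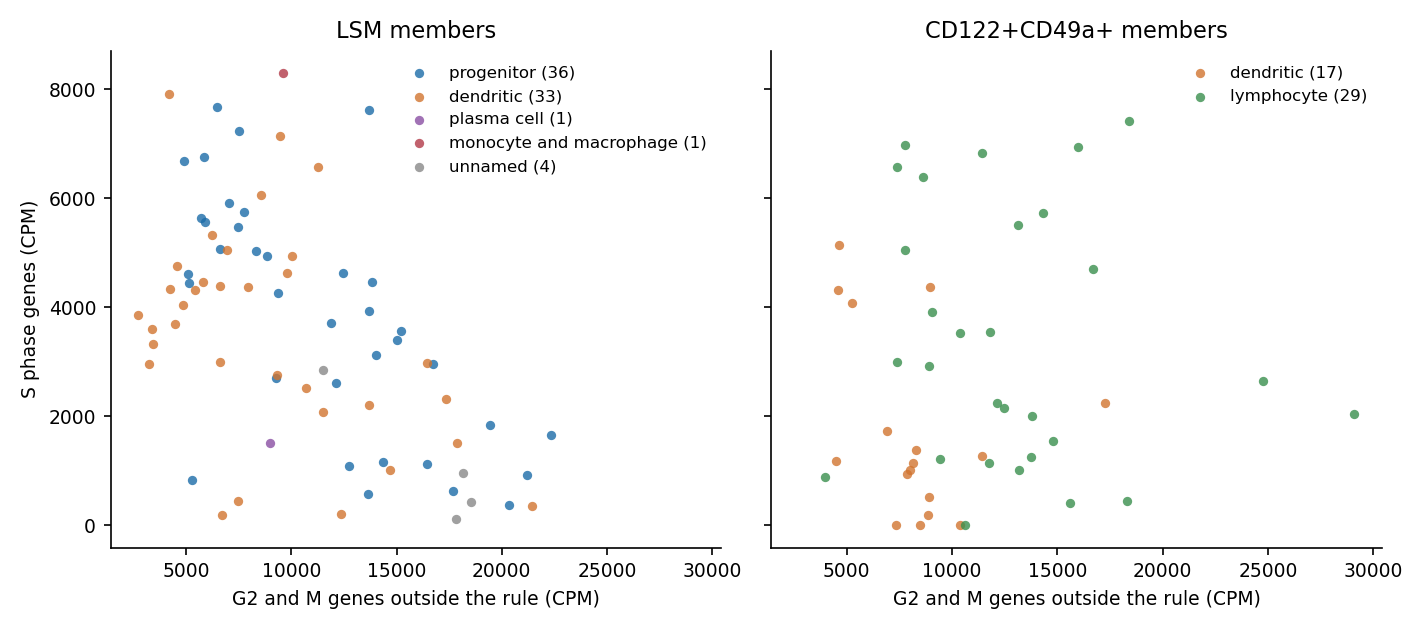
Summed level of the 43 S phase genes (vertical axis, CPM per cell) against that of the 48 G2 and M phase genes outside the rule (horizontal axis, CPM per cell), each point 1 cycling cell coloured by class, with 1 panel for each library. Cells rich in S phase genes and poor in G2 and M phase genes are found mostly in the LSM panel, where 8 of 75 cells have most of their phase UMIs from S phase genes, against 1 of 46.

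Between the 2 main LSM classes most lists of the division machinery differed by less than 1.5-fold. Over 5627 genes, 14.7% were at least 2-fold higher and 11.2% at least 2-fold lower in the 36 cycling progenitors than in the 33 cycling dendritic cells, with a median log2 ratio of 0.12. Of 42 measured S phase genes 4 were at least 2-fold higher and none lower, and the list summed to 4002 and 3578 CPM (1.12-fold, 1.03 to 1.21). The 4 were Dtl, Cdc6, Blm and Usp1. Of 49 G2 and M phase genes 6 were higher and none lower (1.33-fold, 1.27 to 1.39), among them Cenpf, a kinetochore protein, at 227 and 92.4 CPM. Of 19 spindle and motor genes none passed the 2-fold limit in either direction, and their sum was 1.46-fold higher (1.38 to 1.54). The replication histones stood at 11833 and 9363 CPM (1.26-fold, 1.21 to 1.32). TMM scaling lowered each ratio of this comparison by the same factor, to 1.01 for the S phase list, and moved the median log2 ratio to -0.03. For these lists the shares of genes past the limit were at or below those of all genes. The cell cycle transcription factors stood further apart, at 416 and 274 CPM (1.52-fold, 1.16 to 1.99, and 1.37-fold by TMM) with 3 of 11 genes higher and none lower, and the cyclins the other way, at 666 and 838 CPM (0.795-fold, 0.665 to 0.950).

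Lineage lists set the same cells far apart. The MHC class II list stood at 855 CPM in cycling progenitors and 16216 CPM in cycling dendritic cells (0.0527-fold, 0.0467 to 0.0593), with 6 of 6 genes at least 2-fold lower. The lymphoid progenitor list stood at 928 and 155 CPM (5.98-fold, 4.45 to 8.19) and the stem and multipotent progenitor list at 509 and 110 CPM (4.61-fold, 3.22 to 6.77). Both sets of lists entered the naming of clusters or the genes clustered.

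In the CD122+CD49a+ gate, replication genes stood higher in cycling lymphocytes than in cycling dendritic cells. Over 2880 genes, 21.8% were at least 2-fold higher and 13% at least 2-fold lower in the lymphocytes, with a median log2 ratio of 0.24. Of 22 S phase genes 10 were higher and 1 lower, and they summed to 3242 and 1767 CPM (1.83-fold, 1.53 to 2.21). Of 11 genes of replication licensing and the fork 7 were higher and none lower (2.21-fold, 1.69 to 2.92). They included Mcm7, a subunit of the replicative helicase, at 218 and 54.9 CPM (3.98-fold, 1.52 to 13.2), and Pcna, the sliding clamp, at 374 and 165 CPM (2.27-fold, 1.25 to 4.37). Rrm2, the ribonucleotide reductase subunit, stood at 257 and 43.9 CPM (5.86-fold). G2 and M phase genes were nearer together, with 7 of 46 higher and 1 lower (1.42-fold, 1.31 to 1.53).

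Between the dendritic cells of the 2 gates the replication genes stood higher in the LSM cells. This comparison and the last share the 17 CD122+CD49a+ dendritic cells. Of 35 S phase genes 20 were at least 2-fold higher and 3 lower in the LSM cells, and they summed to 3578 and 1767 CPM (2.03-fold, 1.72 to 2.40). Nucleotide supply genes summed to 2055 and 724 CPM (2.84-fold, 2.20 to 3.71), with Dut, which removes dUTP, at 626 and 132 CPM and Tyms, the thymidylate synthase, at 271 and 65.9 CPM. The replication histones summed to 9363 and 3984 CPM (2.35-fold, 2.11 to 2.63), with 7 of 15 genes higher and none lower. Hist1h2ae stood at 3009 and 571 CPM, but histone genes are near-identical copies among which counting may split reads, so values of single histone genes are uncertain. G2 and M phase genes differed little in sum (0.957-fold, 0.890 to 1.03, and 1.18-fold by TMM), with 1 of 49 higher and 16 lower, among them Mki67 at 164 and 527 CPM (0.311-fold, 0.208 to 0.468). The S phase sum was 2.49-fold and the histone sum 2.90-fold higher by TMM. Mki67 and the other rule genes are on the G2 and M phase list and chose the cells. With a fixed limit of 4 UMIs, a shallower cell needs a higher level of these genes to enter. Median depths were 10149 UMIs in the LSM and 5261 in the CD122+CD49a+ cells. The lowest summed levels of the rule genes were 406 and 944 CPM. The part of the rule in the differences between these cells was not tested.

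Levels of some regulators of entry into the cycle differed by class. As deposited, cyclin D genes, whose proteins activate CDK4 and CDK6, differed by lineage, and at matched depth most of their intervals overlapped. Ccnd1 had a UMI in 21 of 33 cycling LSM dendritic cells (63.6%, 45.1 to 79.6) at 176 CPM and 8 of 17 cycling CD122+CD49a+ dendritic cells (47.1%) at 121 CPM. It was found in 7 of 36 cycling progenitors (19.4%, 8.19 to 36.0) at 29.1 CPM and in 0 of 29 cycling lymphocytes, which allows a share of up to 10.3%. The other cells of these classes showed the same order, with 258, 227, 30.3 and 2.95 CPM. At 1500 UMIs per cell Ccnd1 was found in 27.3% (13.3 to 45.5), 11.8% (1.46 to 36.4), 2.86% (0.0723 to 14.9) and 0% (0 of 26 cells) of the same 4 cycling groups. The intervals of both dendritic groups and of the progenitors then all overlapped. The exact upper limit for the lymphocytes, 13.2%, lay just below the interval of the LSM dendritic cells and within the other 2 intervals. Ccnd2 was found in 23 of 36 progenitors (63.9%) at 98.9 CPM, 16 of 29 lymphocytes (55.2%) at 187 CPM, 11 of 33 LSM dendritic cells (33.3%) at 56.7 CPM and 2 of 17 CD122+CD49a+ dendritic cells at 22 CPM. Ccnd3 was found in all 4 classes, in 41.4% to 72.7% of the cells. At the same depth Ccnd2 was found in 22.9% (10.4 to 40.1) of progenitors, 15.4% (4.36 to 34.9) of lymphocytes, 9.09% (1.92 to 24.3) of LSM dendritic cells and 5.88% (0.149 to 28.7) of CD122+CD49a+ dendritic cells, and all these intervals overlapped. By CPM, Ccnd1 thus stood highest in the cycling dendritic cells of both gates and Ccnd2 in the lymphocytes and progenitors.

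Levels of kinases and their inhibitors also differed between the classes. Cdk4 stood at 428 CPM in cycling progenitors, 265 CPM in LSM dendritic cells, 187 CPM in lymphocytes and 54.9 CPM in CD122+CD49a+ dendritic cells. Cdk6 was found in 19 of 36 progenitors (52.8%) at 116 CPM and 9 of 33 LSM dendritic cells (27.3%) at 56.7 CPM. Cdkn2c, which encodes the CDK4 and CDK6 inhibitor p18, had a UMI in 11 of 36 cycling progenitors (30.6%) and 15 of 33 cycling LSM dendritic cells (45.5%), against 14 of 588 (2.38%) and 55 of 775 (7.10%) of the other cells. Its levels were 46.5 and 74.5 CPM in the cycling cells and 4.62 and 14.1 CPM in the others. Cdkn1b, which encodes the inhibitor p27, stood at 69.8, 44.7, 132 and 46.8 CPM in the cycling progenitors, LSM dendritic cells, CD122+CD49a+ dendritic cells and lymphocytes. At this matched depth Cdkn2c was found in 3 of 35 cycling progenitors and 2 of 33 cycling LSM dendritic cells, against 5 of 586 and 17 of 771 others, too few cells to order. By CPM the inhibitor gene Cdkn2c thus stood higher, not lower, in the cycling LSM cells.

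Transcription factors of growth were sparse. Myc had a UMI in 12 of 36 cycling progenitors (33.3%) at 66.9 CPM, 7 of 33 LSM dendritic cells (21.2%) at 20.9 CPM and 1 of 29 lymphocytes (3.45%) at 7.79 CPM. Myb, which blood progenitors need, was found in 11 of 36 progenitors (30.6%) at 61.1 CPM, 6 of 33 LSM dendritic cells at 26.8 CPM, 0 of 17 CD122+CD49a+ dendritic cells and 3 of 29 lymphocytes at 23.4 CPM. Mycn was found in 4 of 36 progenitors and in none of the other 3 classes. After thinning to 1500 UMIs Myc was found in 0 of 35 cycling progenitors and in 1 cell of each other class, so no order of the classes was seen at matched depth. Ccna2, the S and G2 phase cyclin, was found in 22 of 36, 24 of 33, 8 of 17 and 13 of 29 cycling cells and in 1 of 588, 2 of 775, 0 of 433 and 1 of 728 other cells of the same classes, though it was not a rule gene.

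**Figure D5:**
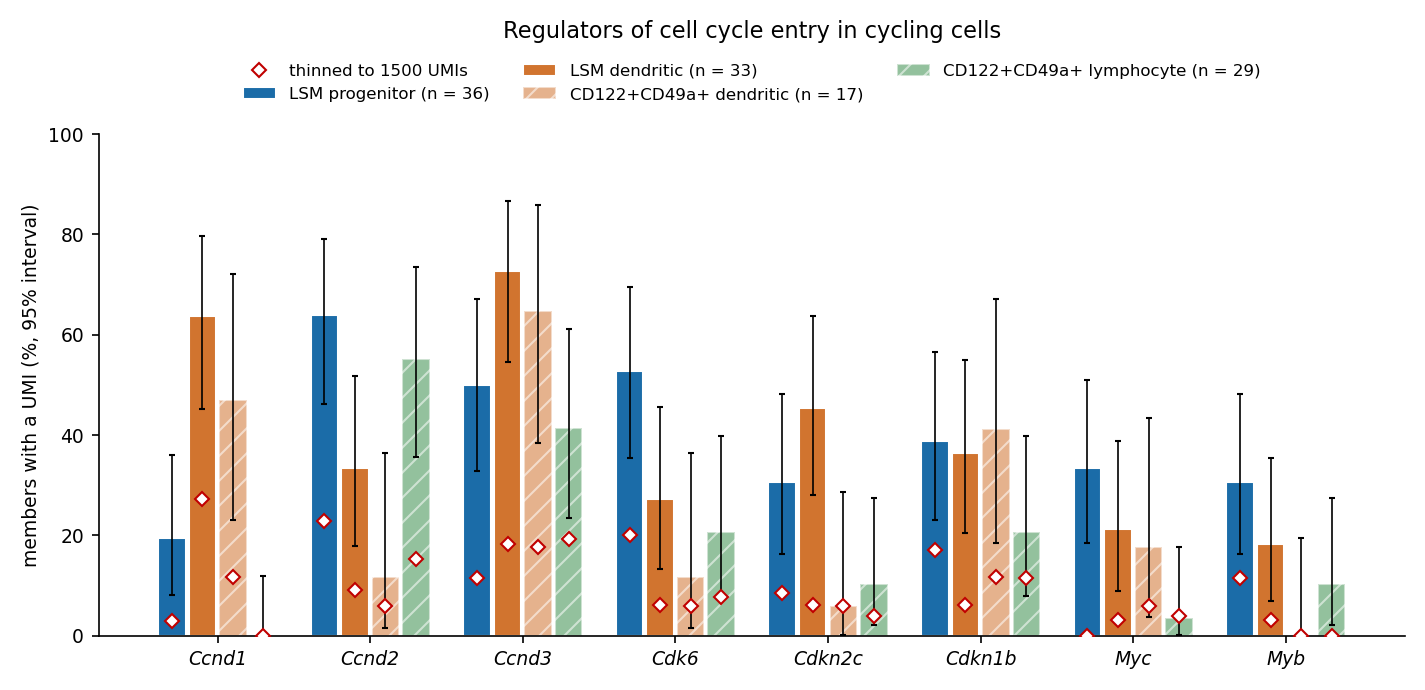
Share of cycling cells with a UMI of 8 cycle regulators, in percent, for 36 LSM progenitors, 33 LSM dendritic cells, 17 CD122+CD49a+ dendritic cells and 29 CD122+CD49a+ lymphocytes, with bars from 0, the exact binomial 95% interval, and a diamond for the share after thinning to 1500 UMIs. As deposited Ccnd1 is highest in both dendritic groups and at 0 of 29 in lymphocytes, and the diamonds lie below the tops of the bars except where both are 0, for Cdkn2c in CD122+CD49a+ dendritic cells and for Myc in lymphocytes. The median depths are 9313, 10149, 5261 and 3028 UMIs.

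Cycling cells were last set beside the other cells of their class. The rule made this split, so the values describe it, and each class also differs in depth. At least 2-fold higher in the cycling cells were 12.6%, 18.9%, 21.8% and 14.0% of all measured genes in LSM progenitors, LSM dendritic cells, CD122+CD49a+ dendritic cells and lymphocytes, and at least 2-fold lower were 12.6%, 9.86%, 11.0% and 17.0%. TMM scaling moved the genes higher and lower from 1251 and 1250 to 908 and 1578 in LSM progenitors, from 1849 and 967 to 1286 and 1446 in LSM dendritic cells, from 1657 and 838 to 1097 and 1342 in CD122+CD49a+ dendritic cells, and from 1093 and 1326 to 850 and 1616 in lymphocytes. Replication histones stood 14.4-fold, 30.4-fold, 17.0-fold and 28.4-fold higher. Genes of quiescence and antiproliferative genes stood at 1355 against 3536 CPM (0.383-fold, 0.349 to 0.421) in progenitors and 1037 against 3235 CPM (0.320-fold, 0.267 to 0.381) in lymphocytes, with 4 and 7 of 11 genes at least 2-fold lower and none higher. They stood at 0.388-fold in LSM and 0.658-fold (0.553 to 0.778) in CD122+CD49a+ dendritic cells. Within the Xcr1 and Batf3 clusters alone the ratios were 0.517 (0.455 to 0.586) in the LSM and 0.943 (0.775 to 1.14) in the CD122+CD49a+ gate. By TMM they were 0.408 and 0.721, both below these intervals, so whether the CD122+CD49a+ ratio stands near 1 depends on the scaling.

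Among these genes, Klf2, a transcription factor of resting lymphocytes and progenitors, stood at 521 CPM in cycling and 1496 CPM in other progenitors, and at 117 and 137 CPM in lymphocytes. Btg1, an antiproliferative gene, stood at 491 CPM in cycling and 1734 CPM in other lymphocytes, 280 and 1018 CPM in LSM dendritic cells, and 172 and 534 CPM in progenitors. Rbl2, which encodes the p130 subunit of DREAM, stood at 39.0 and 136 CPM in lymphocytes. Immediate early genes, which rise when tissue is dissociated, were also lower in cycling progenitors (6274 against 12847 CPM, 0.488-fold) and lymphocytes (1372 against 3830 CPM, 0.358-fold), and their part in the result was not tested. MHC class II stood at 0.256-fold in progenitors, 0.496-fold in LSM dendritic cells and 0.770-fold in CD122+CD49a+ dendritic cells, but at 1.5-fold (1.20 to 1.87) in lymphocytes, where the level was low (772 against 514 CPM). Ribosome biogenesis genes stood 1.20-fold to 1.36-fold higher in the 4 classes by CPM, and at 0.992-fold to 1.20-fold by TMM, where the CD122+CD49a+ dendritic cells fell below 1.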

How the data were processed

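The authors deposited raw UMI count matrices, 1 per gate, written by matrix software version 3.0.1 per the file headers. The submitters' processing notes name STAR, Seurat 2.3.0 and the build GRCm38, with no role for each. Positions came from GENCODE M21 on the same build, which held 27722 of 27998 gene IDs (99.0%), and promoters from RefSeq. The members, gene lists and markers were chosen with earlier results of these data known.

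Cells without cycling members were clustered in each library without 258 cell cycle genes (10000 counts per cell, log scale, 2000 variable genes, 20 components, 15 neighbours, Leiden resolution 0.6, with scanpy 1.11.5, leidenalg 0.10.2 and scikit-learn 1.9.0). Clusters were named from 19 cell type lists, where a marker counted as raised with a UMI in 10% of cells and a level at least 2-fold that of the rest (5 CPM added to both), and a name needed 3 raised markers. A cycling cell took the class of over 50% of its 15 nearest other cells. The automatic Scrublet threshold marked only 0.383% and 0.242% of barcodes, so the expected share (0.8% per 1000 barcodes) was marked instead, and no doublet was removed.

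Levels are UMIs summed over cells as CPM of the group's total. Intervals are 95% exact binomial (Clopper-Pearson) for shares, exact Poisson for levels and conditional binomial for ratios, and a count of 0 was set to 3 for bounds. Genes with at least 10 UMIs in both groups together counted as called at 2-fold. With 1 library per gate no p-value was computed. Named genes were the 6 rule genes, list members, and for each class with at least 20 members the 8 protein-coding genes furthest above the other members and the 8 in each direction against other cells of the class, at 100 CPM or more with 30 UMIs. The genes of the surface proteins, the genes of the cells with low MHC class II, the shares of cells with a UMI at 1500 UMIs and the values of lymphocyte genes within clusters were added after their values or the report's first results were seen. Alternatives covered depth, the rule's limits, cell filters, doublets, clustering, class calls, TMM factors (edgeR 4.0.16), the mean over cells and the minimum of UMIs.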

Additional observations from a re-analysis of the deposited data

How the results depend on the processing

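Each gate is 1 library, so no value here has a replicate check, and the cells of a gate come from an unstated number of animals. No paired analysis was possible because each gate has 1 library and the labels do not say whether both were sorted from the same animals. Depth limits the shares: at 1500 UMIs per cell the rule found 26 cycling LSM cells in place of 75, and 648 CD122+CD49a+ cells lay under that depth. Thinned to 1500 UMIs the LSM share was 0.877%, and within classes 1.24% in LSM dendritic cells and 1.93% in LSM progenitors. Thinned to 1000 UMIs the shares of the gates were 0.623% (LSM) and 1.64% (CD122+CD49a+), with overlapping intervals. The CD122+CD49a+ share was 2.56% with at least 6 UMIs from 4 genes and 16.7% when cells under 1000 genes or over 5% mitochondrial UMIs were left out, a filter that keeps its deep cells. Of the cycling LSM cells, dendritic cells made up 7.69% (2 of 26) when cells were thinned and clustered anew and 38.5% (10 of 26) when thinned with the classes found at full depth, the second being an alternative chosen after seeing the data. By marker UMIs alone dendritic cells made up 28% and progenitors 60%. The other 41 of 44 class shares moved by less than their counting interval, with 17 dendritic cells and 29 lymphocytes in the CD122+CD49a+ gate at resolutions 0.3 and 1.0, with 30 neighbours and with cell cycle genes kept. The S phase part was 32.0% in LSM dendritic cells as a mean of per-cell parts and, thinned, 28.0% in LSM dendritic cells, 23.8% in LSM progenitors and 18.7% in lymphocytes. Without a minimum of UMIs, where single UMIs decide calls, 2106 genes were higher and 2777 lower in cycling lymphocytes than dendritic cells, 2009 higher and 2135 lower in cycling progenitors than LSM dendritic cells, and 4371 lower in LSM than CD122+CD49a+ dendritic cells. Without it, 5755, 4715, 5253 and 4534 genes were higher in cycling than other CD122+CD49a+ dendritic cells, lymphocytes, LSM dendritic cells and LSM progenitors. By TMM, 426 genes were lower between the dendritic cells of the gates, and 1097 higher and 1342 lower in cycling than other CD122+CD49a+ dendritic cells, against 680 and 519 within 1 cluster, a comparison added after seeing the data. Of list ratios, 76 of 95 between cycling classes and 129 of 221 against other cells moved by less than their interval, and no called value changed sign under any alternative run. The cause of these moves was not tested.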
